A study of Rattus norvegicus with 10 samples.

Results

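A set of 10 genes of heme breakdown, iron storage, iron transport and the antioxidant response were examined in rupture-prone intracranial aneurysm (IA) lesions of rats and in the arteries around them. They were heme oxygenase 1 (Hmox1), the biliverdin reductases Blvra and Blvrb, the ferritin chains Fth1 and Ftl1, the iron transporters Slc40a1 and Slc11a1, the transferrin receptor Tfrc, and the antioxidant enzyme genes Nqo1 and Gclm. They were taken by name from a table of 22081 genes, which held 9 of the 10 under that name and Slc40a1 as 2 rows with a suffix. The genes had been chosen by reads known from these same 10 samples, so that their differences between the groups are given as a description, fold changes and p-values included.

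In cells, heme oxygenase opens the heme ring and releases iron, carbon monoxide and biliverdin, which biliverdin reductases turn into bilirubin. The freed iron is held in ferritin, a shell of heavy and light chains, or leaves the cell through ferroportin, the product of Slc40a1. Macrophages that clear red blood cells or cell debris are known for high heme oxygenase and ferritin, and Hmox1, both ferritin chains, Nqo1 and Gclm are textbook targets of the transcription factor Nfe2l2 (NRF2).

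Poly(A) RNA was sequenced from 5 rupture-prone IA lesions and from 5 samples of the rest of the circle of Willis (control), the arterial ring at the base of the brain, with sample numbers 4 to 8 in each group. All rats were wild-type female Sprague–Dawley animals aged 10 weeks at surgery. In both groups the ovaries had been removed on both sides, 3 vessels to the head (left carotid, right pterygopalatine and right external carotid) had been tied off, and blood pressure had been raised by salt in the diet together with a tied left renal artery. Sodium chloride made up 8% of the food. The lysyl oxidase blocker 3-aminopropionitrile was added at 0.12%, and tissue was taken on day 63. The lesions lay on the anterior or posterior communicating artery. The control samples therefore come from operated, hypertensive animals and are not arteries of untreated rats. Per the study's methods, lesion and remaining circle of Willis were dissected from the same animal, so that the groups are paired by animal. No source states that a shared sample number marks the animal, and the main comparison was therefore made without pairing, with errors and p-values that cover the spread among these samples.

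Reads assigned to genes ranged from 4513515 to 7352626 per IA lesion and from 3017269 to 5692715 per control sample, and 41.8% of them lay in introns. Aneurysm 8 stood apart, with 743 genes at 10 or more exon reads against 2664 to 7590 in the other 9 samples and a TMM scaling factor of 0.282 against 0.759 to 1.57. The edgeR common coefficient of variation was 1.38. Over the 7615 genes that passed the low-count filter, edgeR's quasi-likelihood test with Benjamini-Hochberg adjustment called 0.118% higher and 0.0394% lower in IA lesions at an adjusted p under 0.05. The smooth muscle markers were present in every sample, with a summed level of 379 to 1110 CPM (reads scaled to a common library size, after TMM) in the lesions and 620 to 1450 CPM in the controls.

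Hmox1 was much higher in IA lesions than in the rest of the circle of Willis, and it was the only one of the 8 genes that passed the low-count filter to be called. The row named Ftl1, for the ferritin light chain, had the most reads of the set and the next lowest p, and it was highest in the same 4 lesions. Blvra, Slc11a1 and Fth1 had more reads in the lesions than in the controls but varied widely, and Tfrc, Nqo1 and Gclm overlapped almost fully between the groups. Of the 8 genes, 7 had a positive log2 fold change, where 54.2% of all tested genes did, with a median of 1.93 against 0.13 over all tested genes. As the genes had been picked with this contrast known, nothing is read from these shares.

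**Figure D1:**
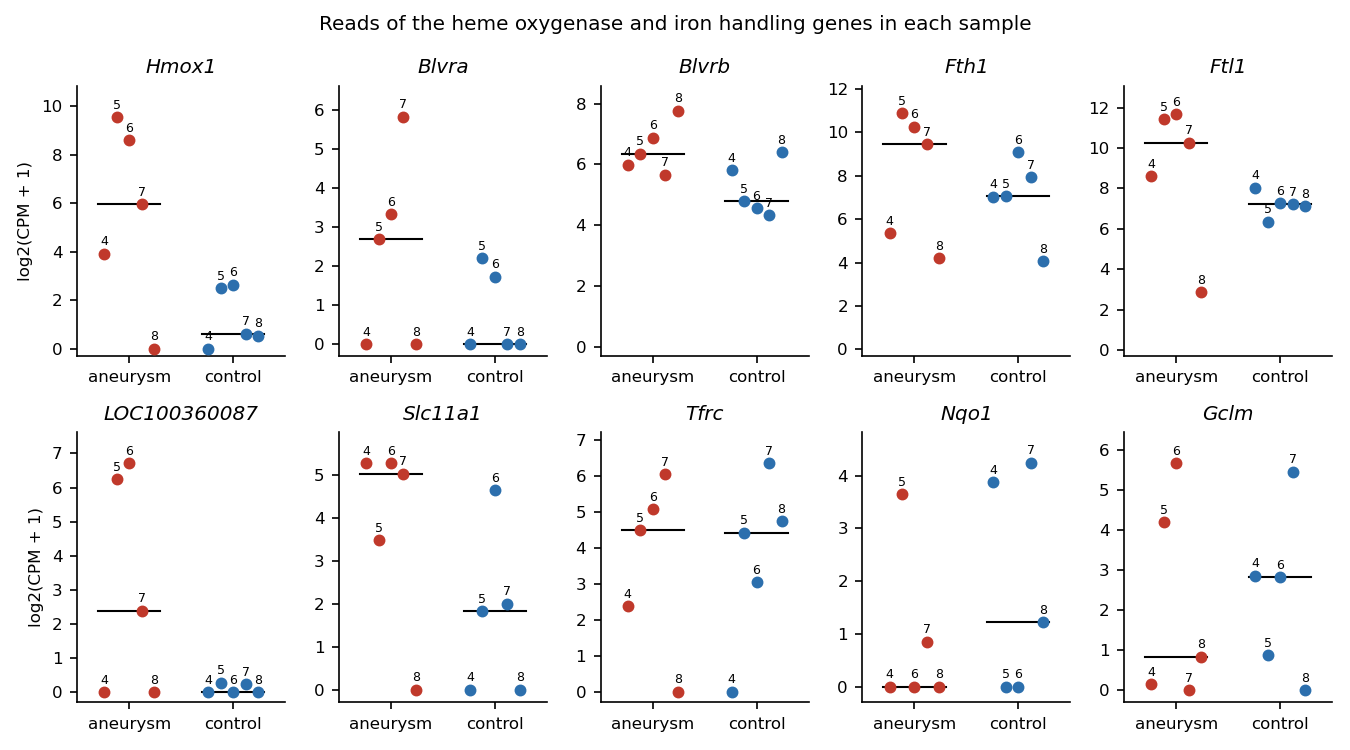
Each point is 1 sample, labelled with its number, and shows log2(CPM + 1), with CPM from total gene reads scaled by TMM; bars mark the group medians of 5 samples and each panel has its own vertical scale. For Hmox1 and Ftl1, 4 of the 5 lesions lie above every control sample and aneurysm 8 lies at or below all of them.

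Hmox1 (ENSRNOG00000014117) lies on chromosome 19 of the Rnor6 build (chr19:14508615-14515456) and has 5 exons. Its total gene reads were 120, 8096, 2133, 305 and 0 across aneurysms 4 to 8, and 0, 22, 18, 3 and 1 in controls 4 to 8. Aneurysms 5 and 6 carried most of the signal, aneurysm 5 alone 76.0% of all lesion reads, and aneurysm 8 had none. In CPM the lesions stood at 14.1, 747, 385, 61.6 and 0, and no control exceeded 5.20, so that 4 of 5 lesions lay above every control. Of all tested genes, 3.73% showed such a separation of at least 4 lesions.

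On the log2 scale the fold change of Hmox1 was 6.79 (standard error 1.46, n = 5 per group, edgeR adjusted p = 0.0483). Summed over each group, 10654 lesion reads against 44 control reads gave a ratio of 170 after scaling (95% exact binomial counting interval 127 to 234, counting error only). With DESeq2, which called 1.09% of all tested genes higher and 0.643% lower, the adjusted p was 8.02e-05, and with limma-voom, which called 0.0263% higher and 0.144% lower, it was 0.173. Its value stayed between 5.75 and 7.38 over all 22 alternative settings, but the call was lost in 12 of them. Among single samples left out, it was lost without aneurysm 5 (edgeR adjusted p = 0.225), aneurysm 6 (0.106), control 4 (0.0811), control 5 (0.077), control 6 (0.1), control 7 (0.128) or control 8 (0.174).

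The reads of Hmox1 were almost all exonic, 98.9% of the total, and all of them mapped to a single place in the genome. Only 3 of its 10580 exon reads crossed an exon junction (0.0284%), while 5.04% of exon reads did over all genes. The 117 intron reads in the lesions all came from aneurysm 7. With exon reads alone the log2 fold change was 5.91 (standard error 1.35, edgeR adjusted p = 0.00371).

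The biliverdin reductases, which act right after heme oxygenase, did not follow one pattern. Blvra (chr3:119561289-119577806, 7 exons) encodes the reductase for biliverdin IX-alpha, the form that heme oxygenase makes. Its gene reads were 0, 59, 50, 278 and 0 across aneurysms 4 to 8 and 0, 17, 8, 0 and 0 in controls 4 to 8. Aneurysms 5, 6 and 7 were above every control, aneurysm 7 held 71.8% of the lesion reads, and the other lesions had none, as had 3 controls. Its log2 fold change was 3.55 (standard error 2.03, edgeR adjusted p = 0.941), and 91.5% of the reads were exonic. Without aneurysm 7 it was 1.64.

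Blvrb (chr1:84256158-84274075, 5 exons), the second reductase, was read in every sample, at 536, 877, 650, 247 and 275 gene reads in aneurysms 4 to 8 and 315, 126, 79, 109 and 187 in controls 4 to 8. Almost all of these reads were intronic, as only 5% of the 3401 lay in exons. Exon reads were present in aneurysm 4 (6), aneurysm 5 (149), aneurysm 7 (1) and control 6 (14) and were 0 in the other 6 samples. In total gene reads the log2 fold change was 1.35 (standard error 0.82, edgeR adjusted p = 0.969). In CPM 2 lesions, aneurysms 6 and 8, lay above every control. By library size alone, without TMM, 3 lesions did, and aneurysm 8 was not among them.

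**Figure D2:**
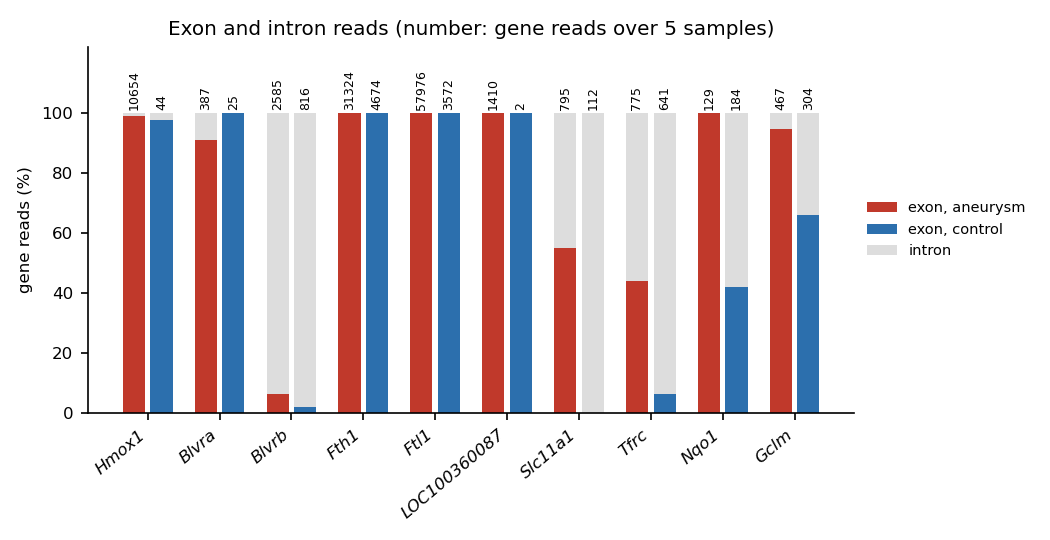
Bars show the percentage of gene reads in exons (red, aneurysm; blue, control) and in introns (grey), summed over 5 samples per group, with the number of gene reads above each bar. Hmox1, Fth1 and both ferritin light chain rows were read almost wholly in exons, Blvrb almost wholly in introns, and Slc11a1 in the controls in introns alone.

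Ferritin carried the most reads of the set. Fth1 (chr1:226030937-226033228, 4 exons), the heavy chain that oxidizes iron for storage, had 344, 20662, 6841, 3455 and 22 reads in aneurysms 4 to 8 and 746, 622, 1885, 1386 and 35 in controls 4 to 8, all in exons. Aneurysms 5, 6 and 7 were above every control, but aneurysms 4 and 8 lay among the lowest samples, beside control 8. By edgeR, the log2 fold change of Fth1 was 1.87 (standard error 0.93, edgeR adjusted p = 0.887). Mean levels were 779 CPM ± 808 in the lesions and 213 CPM ± 202 in the controls (SD, n = 5 each).

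Only 10.9% of Fth1 reads were assigned to a single place in the genome, against 96.1% over all genes, and in 9 of the 10 samples these unique reads equalled the reads across exon junctions in number. The unique reads were 0, 1991, 822, 818 and 1 across aneurysms 4 to 8 and 0, 188, 112, 0 and 0 in controls 4 to 8. RefSeq names 5 Fth1 and 14 Ftl1 pseudogenes in the rat, and no source says how reads were shared among copies. The Fth1 value is therefore uncertain as a measure of this one locus. Of 17 rows that the deposited annotation describes as ferritin, 3 held 10 or more reads.

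The light chain needs its locus stated, because the table and RefSeq use its names the other way round. The row named Ftl1 (ENSRNOG00000031506) is a locus of 1 exon at chr5:152325870-152326778, between Cd52 and Ubxn11, which RefSeq calls LOC100360087. The row named LOC100360087 (ENSRNOG00000020843) has 4 exons at chr1:101448345-101449829, between Gys1 and Bax, where RefSeq places Ftl1. The second row is not among the 10 genes by name and was added after its values were seen.

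The row named Ftl1 had 3357, 30390, 18081, 6140 and 8 reads in aneurysms 4 to 8 and 1509, 382, 528, 841 and 312 in controls 4 to 8. In CPM the lesions stood at 394, 2800, 3260, 1240 and 6.33 and the controls at 262, 80.8, 152, 148 and 139. Aneurysms 4 to 7 lay above every control and aneurysm 8 below all of them. The log2 fold change was 3.30 (standard error 0.90, unadjusted p = 0.00101, edgeR adjusted p = 0.198). Its call changed with the method: it passed with DESeq2 (adjusted p = 0.0173), with no low-count filter (edgeR adjusted p = 9.97e-04), without aneurysm 8 (0.00304) and without both samples numbered 8 (0.0187, a setting added after the data were seen).

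With 4 exons, the row named LOC100360087 had 0, 811, 578, 21 and 0 reads in aneurysms 4 to 8 and 0, 1, 0, 1 and 0 in controls 4 to 8. The reads came from aneurysms 5 and 6 and few from aneurysm 7, and aneurysms 4 and 8 had none. Over the groups, 1410 lesion reads against 2 control reads gave a ratio of 495 after scaling (95% exact binomial counting interval 137 to 4090). It did not pass the low-count filter, and without that filter its log2 fold change was 8.50 (standard error 2.16, edgeR adjusted p = 0.0168). Of its exon reads, 59.8% crossed a junction, whereas the single-exon Ftl1 row had 0 junction reads among 61548. Only 55.5% of the reads of the LOC100360087 row were assigned to a single place in the genome. This share was 93.1% in the Ftl1 row and 96.1% over all genes. How reads were shared between these rows is not stated, so the values of the LOC100360087 row are uncertain as measures of that locus alone.

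Per kilobase of exon, the Ftl1 row exceeded Fth1 in aneurysms 4 to 7 (ratio of exon reads per length 8.92, 1.34, 2.42 and 1.62) and in controls 4 and 8 (1.85 and 8.15). It was below Fth1 in aneurysm 8 (0.332) and in controls 5, 6 and 7 (0.561, 0.256 and 0.555). The ratio rests on 8 against 22 reads in aneurysm 8 and on 312 against 35 reads in control 8. The median exon level per kilobase was 1360 CPM in the lesions and 163 in the controls for the Ftl1 row, 840 and 158 for Fth1, and 24.2 and 0.284 for Hmox1. For the row named LOC100360087 it was 7.68 and 0, and for each of the other genes at most 4.91 in either group. In both groups the Ftl1 row and Fth1 thus had the highest medians, and the order of this pair changed from sample to sample. As only 10.9% of Fth1 reads were assigned to a single place, this order is uncertain.

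Among the transporters, Slc11a1 was read in exons only in the lesions. It encodes NRAMP1, which pumps iron and manganese out of the phagosome of macrophages and neutrophils. Gene reads of this locus (chr9:81655628-81666706, 19 exons) were 320, 110, 209, 156 and 0 across aneurysms 4 to 8 and 0, 12, 83, 17 and 0 in controls 4 to 8. Exon reads were 0, 110, 206, 120 and 0 in the lesions and 0 in each of the 5 controls. Against a floor of 3 reads over the control group, the 436 exon reads of the lesions gave a ratio of 102 after scaling. This floor covers counting error only, not the spread among samples. With exon reads and no filter the log2 fold change was 8.86 (edgeR adjusted p = 0.175). In total gene reads the log2 fold change was 1.99 (standard error 1.75, edgeR adjusted p = 0.999), and 3 lesions lay above every control. This value rested on control 6, without which it was 4.04.

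Tfrc, the receptor that brings transferrin-bound iron into cells (chr11:71397382-71419223, 19 exons), had 36, 233, 183, 323 and 0 gene reads in aneurysms 4 to 8 and 0, 97, 25, 461 and 58 in controls 4 to 8. The groups overlapped over nearly their whole range, and control 7 was the highest sample in total gene reads. Only 42.9% of Tfrc reads were assigned to a single place in the genome, against 96.1% over all genes. Of these unique reads control 7 had 40, and aneurysms 5 and 7 had the most, 197 and 139. With unique reads the log2 fold change was -0.183. Exon reads were 26.8% of the total, at 0, 195, 16, 129 and 0 in the lesions and 39 in control 7, with 0 in the other controls. The log2 fold change was -0.12 (standard error 1.44, edgeR adjusted p = 0.999), and its sign depended on the setting, as it was 0.09 with DESeq2.

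Slc40a1 is reported with care, since the table splits it. The row on chr9:52894364-52912293 (ENSRNOG00000003872, 8 exons) had 1, 264, 0, 0 and 0 reads in aneurysms 4 to 8 and 159, 0, 160, 0 and 0 in controls 4 to 8, all in exons and none across a junction. The row on chr9:52820682-52830457 (ENSRNOG00000049995, 6 exons) had 2 reads in control 7 and 0 elsewhere. Neither passed the low-count filter, and the iron exporter was not detectable at this depth in 6 of the 10 samples in the first row, where 0 reads allow up to 3 reads per sample.

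Nqo1 and Gclm, the genes of the antioxidant response, gave no common direction. Nqo1 (chr19:38422163-38437180, 6 exons) encodes a quinone reductase and did not pass the low-count filter. It had 0, 125, 0, 4 and 0 gene reads in aneurysms 4 to 8 and 79, 0, 0, 102 and 3 in controls 4 to 8, with the 102 reads of control 7 all in introns. Gclm (chr2:225827503-225847874, 7 exons), the modifier subunit of the enzyme that starts glutathione synthesis, had 1, 188, 277, 0 and 1 gene reads in the lesions and 36, 4, 21, 243 and 0 in the controls. One lesion, aneurysm 6, was above every control. Its log2 fold change was 0.28 (standard error 1.80, edgeR adjusted p = 0.999), and it was -0.20 with exon reads.

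**Figure D3:**
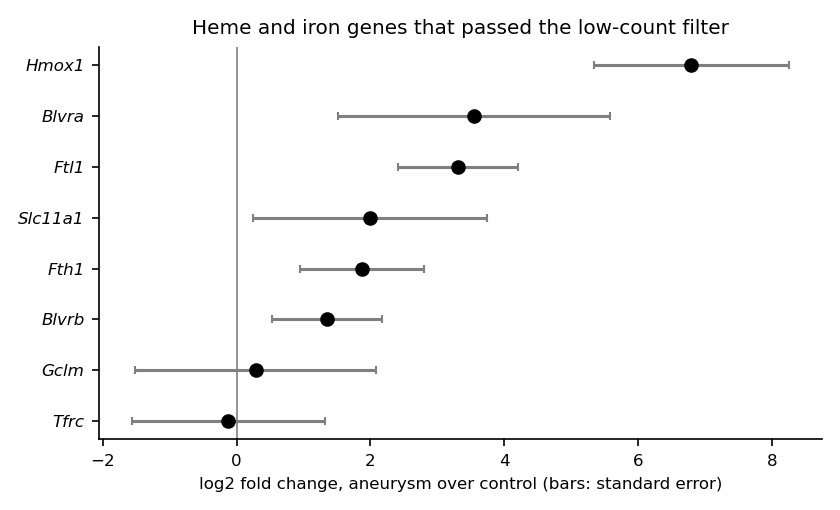
Points show the log2 fold change of aneurysm over control from edgeR on total gene reads, and bars the standard error, for the 8 genes that passed the low-count filter (5 samples per group). Hmox1 has the highest value, 6.79, and the values for Tfrc and Gclm lie within 1 standard error of 0.

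Across the 10 samples the levels of these genes moved together in part. The Pearson correlation of log2 CPM with Hmox1 was 0.84 for the Ftl1 row, 0.78 for Slc11a1, 0.77 for Fth1 and 0.76 for Blvra. It was 0.51 for Tfrc, 0.28 for Gclm and 0.12 for Blvrb. The points share their libraries, scaling and group difference, so these values describe the samples and carry no test.

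Among the 5 other tested genes most like Hmox1 in this measure were Cops6 (r = 0.958), Arpc4 (r = 0.944), AC133403.1 (r = 0.927) and Bgn (r = 0.917). Cops6 is a COP9 signalosome subunit, Arpc4 belongs to the actin-nucleating Arp2/3 complex, and Bgn encodes the matrix proteoglycan biglycan. Bgn had 577, 12112, 4158, 1434 and 8 reads in aneurysms 4 to 8 and 116, 82, 51, 7 and 4 in controls 4 to 8 (log2 fold change 5.33, standard error 1.09, edgeR adjusted p = 0.0325). As for Hmox1, aneurysm 5 had the most reads and aneurysm 8 the fewest among the lesions.

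Since macrophages and red blood cells handle much of the body's heme, their markers were set beside these values. The summed level of 15 macrophage markers was 349, 5960, 7380, 1640 and 180 CPM in aneurysms 4 to 8 and 326, 92.4, 191, 218 and 79.2 in controls 4 to 8. Thus 4 of 5 lesions were above every control, and the highest 3 were the same lesions, 5, 6 and 7, that were highest for Hmox1, Ftl1 and Fth1. By edgeR, 2 of 12 tested macrophage markers were called higher and 0 lower, where 0.118% and 0.0394% of all tested genes were. DESeq2 called 5 higher, where it called 1.09% of all tested genes higher, and limma-voom called 0. None of the 15 markers was at 0 in all samples, and Lyz2 and Gpnmb had the highest means (751 and 241 CPM). Cd68 had 1, 3550, 2784, 246 and 3 reads in the lesions and 2 in all controls together. Cd163, the macrophage receptor for haptoglobin-bound hemoglobin, ran the other way, with 14, 128, 1, 0 and 67 reads in the lesions and 194, 195, 18, 0 and 1 in the controls. Of the 12 tested markers, 10 had a positive and 2 a negative log2 fold change, where 54.2% of all tested genes were positive. The part of the macrophage markers in the differences of Hmox1, Ftl1, Fth1 and Slc11a1 was not tested. In these bulk samples more cells of a type and more RNA per cell cannot be told apart.

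**Figure D4:**
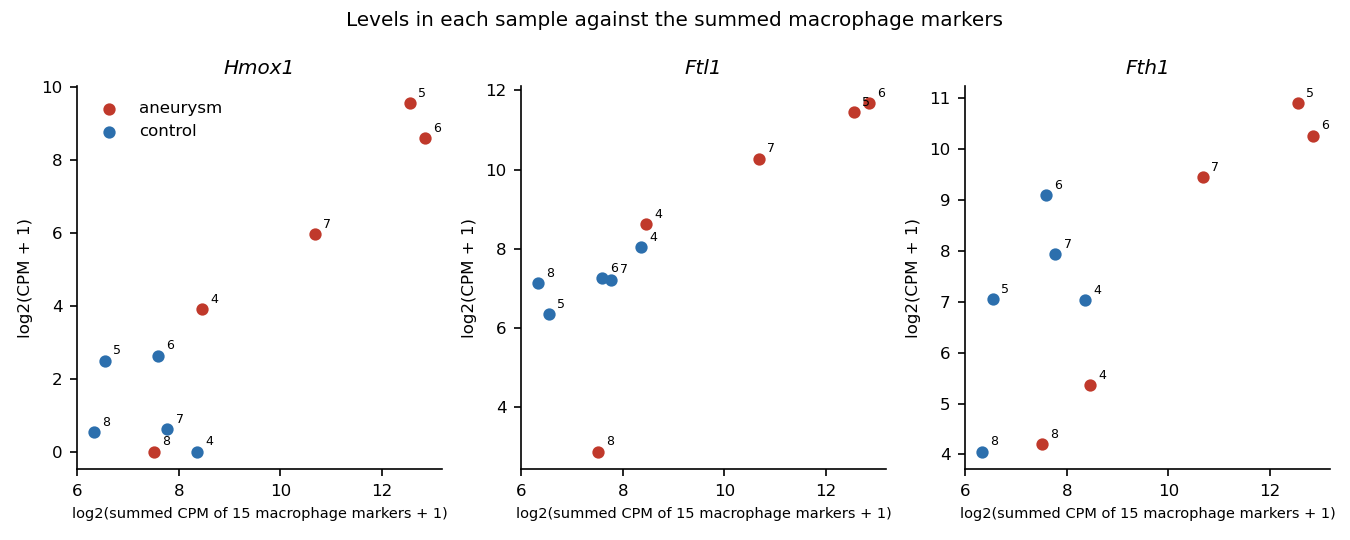
Each point is 1 sample, labelled with its number, with log2(CPM + 1) of the summed 15 macrophage markers on the horizontal axis and of Hmox1, Ftl1 or Fth1 on the vertical axis (red, aneurysm; blue, control). Aneurysms 5 and 6 lie at the top right in each panel, and aneurysm 8 lies at the bottom with the controls for Hmox1 and below them for Ftl1.

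The hemoglobin rows Hba-a2_1, Hba-a2_2, Hba-a3 and Hbb, of which the alpha rows were named after the data were seen, summed to 31.1, 124, 630, 6.66 and 1850 CPM in aneurysms 4 to 8 and 63.3, 178, 224, 49.9 and 133 in controls 4 to 8. The order differed from that of Hmox1, as aneurysm 8 was highest in hemoglobin and had 0 Hmox1 reads, and aneurysm 7 was lowest in hemoglobin and had 305. The top place of aneurysm 8 rests on its TMM factor, since by library size alone aneurysm 6 was highest, at 755 CPM against 517 CPM in aneurysm 8. The 5 erythrocyte markers listed by name summed to 0 to 233 CPM in the lesions and 0 to 36.1 CPM in the controls, with Ahsp at 0 in all samples. Among 8 neutrophil markers S100a9, Mpo and Elane were at 0 in all samples, and their sum was 0.0923 to 8.56 CPM in the lesions and 0.578 to 21.7 CPM in the controls.

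Marker sums of other cell types also stood apart between the groups. The summed fibroblast markers were 398 to 22200 CPM in the lesions and 101 to 517 CPM in the controls. Here 4 of 5 lesions, aneurysms 5 to 8, were above every control, whereas for Hmox1 and Ftl1 these were aneurysms 4 to 7. The highest 3 were again aneurysms 5, 6 and 7, at 22200, 16200 and 4500 CPM. By edgeR, 2 of 6 tested fibroblast markers were called higher and 0 lower, where 0.118% and 0.0394% of all tested genes were. DESeq2 called 3 higher, where it called 1.09% of all tested genes higher, and limma-voom called 0. Aneurysm 4 (398 CPM) lay below control 7 (517 CPM), and the 742 CPM of aneurysm 8 includes its TMM factor of 0.282. Neuron markers were 2.70 to 155 CPM against 162 to 917 CPM, and astrocyte markers 4.75 to 197 CPM against 415 to 770 CPM. Endothelial markers were 65.8 to 198 CPM against 103 to 276 CPM, with Flt1 and Vwf the most abundant. The part of these cell types in the heme and iron genes was not tested.

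Apart from the 10 genes, 50 genes of heme synthesis, heme transport and breakdown, iron transport, and iron storage and its regulation were listed, and 49 were in the table, 5 of them with 0 reads in all samples. Of 23 tested, edgeR's quasi-likelihood test called 0 in either direction. At an unadjusted p under 0.05, 1 was higher and 1 lower, where 3.3% and 2.43% of all tested genes were. DESeq2 called 0, and limma-voom 1, Pcbp2. Log2 fold changes were positive for 15 and negative for 8 of them, where 54.2% of all tested genes were positive. The median was 0.47 against 0.13 over all tested genes.

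In heme transport, Lrp1, a receptor that takes up the heme–hemopexin complex among many ligands, had 2570, 2293, 901, 1201 and 1058 reads in aneurysms 4 to 8 and 426, 554, 331, 942 and 200 in controls 4 to 8 (log2 fold change 1.69, standard error 0.67, edgeR adjusted p = 0.63). In CPM 4 of 5 lesions were above every control, where 3.73% of all tested genes had at least 4 such lesions. By library size alone, without TMM, all 5 lesions were. The CPM of aneurysm 8 includes its TMM factor of 0.282. Only 33.2% of Lrp1 reads were in exons. Hmox2, the constitutive heme oxygenase, did not share the pattern of Hmox1. Its reads were 625, 76, 59, 60 and 0 in the lesions and 80, 85, 52, 65 and 0 in the controls (log2 fold change 0.82, standard error 1.59, edgeR adjusted p = 0.999). Only 17.4% of Hmox2 reads were in exons, against 98.9% for Hmox1. The heme-binding proteins Hebp1 and Pgrmc1 stood at 0.96 (standard error 1.60) and -0.25 (standard error 1.12) on the log2 scale. Exons held 7.24% and 28.7% of their reads. In heme synthesis 2 of 9 listed genes were tested, Alas1, the rate-limiting enzyme outside red cells, at 0.79 (standard error 1.68), and Fech, which inserts the iron, at -1.08 (standard error 1.78).

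In iron transport all 7 tested genes had a positive log2 fold change, where 54.2% of all tested genes did, and 0 were called. Heph, a copper-containing oxidase that loads iron onto transferrin, stood at 2.74 (standard error 1.38), the zinc and iron importer Slc39a14 at 2.38 (standard error 1.81), the importer Slc11a2 at 1.19 (standard error 1.46), and ceruloplasmin (Cp), another iron-oxidizing enzyme, at 0.54 (standard error 1.11). By edgeR the adjusted p was 0.889 for Heph and 0.999 for the other 3. Heph was not read in aneurysm 7 and had its highest count, 322, in aneurysm 8, where Hmox1 was at 0. The TMM factor of aneurysm 8, 0.282, raises the CPM of that sample. Slc39a14 had 0 reads in aneurysms 7 and 8.

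For iron storage and its regulation, Pcbp2, an RNA-binding protein that also delivers iron to ferritin, went in the other direction. It had 0, 70, 0, 0 and 0 reads in aneurysms 4 to 8 and 192, 131, 179, 181 and 88 in controls 4 to 8, and all 5 lesions were below every control in CPM, as were those of 1.54% of all tested genes. The log2 fold change was -4.74 (standard error 1.84, edgeR adjusted p = 0.603). Fbxl5, which targets an iron regulatory protein for degradation, and Aco1, the iron regulatory protein that doubles as an aconitase, stood at 0.97 (standard error 1.30) and -0.96 (standard error 1.65) on the log2 scale. Exons held 10.4% and 35.7% of their reads.

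**Figure D5:**
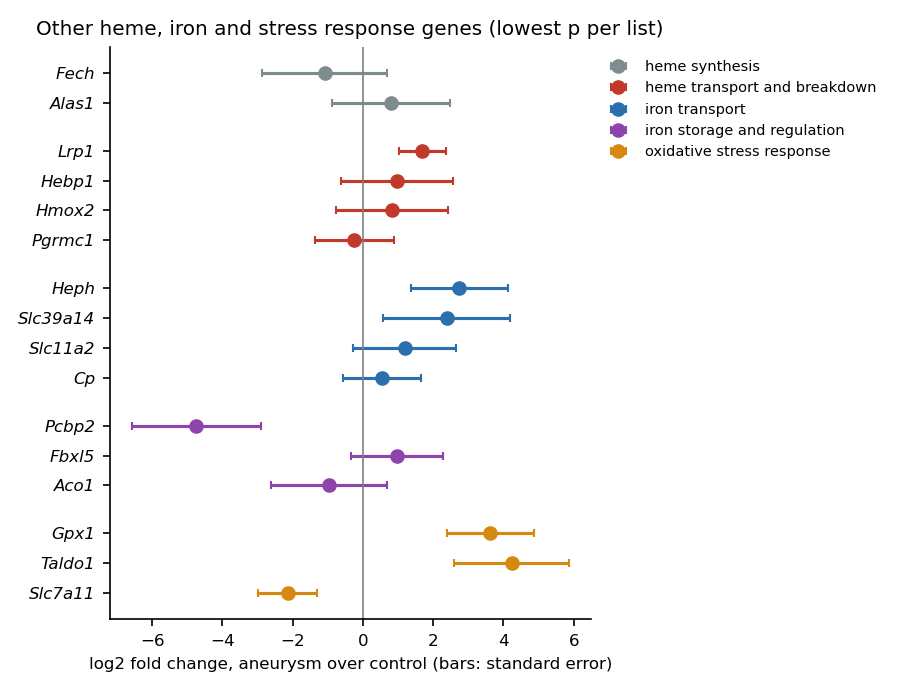
Points show the log2 fold change of aneurysm over control from edgeR on total gene reads, and bars the standard error, for genes among the 4 tested with the lowest p of each of 5 lists (5 samples per group). None of those shown passed the threshold, Pcbp2 and Slc7a11 are the lowest, at -4.74 and -2.14, and Taldo1 is the highest, at 4.23.

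For the antioxidant response, 39 further genes were listed, 36 were in the table and 27 were tested. edgeR's quasi-likelihood test called 0 of them, as did DESeq2 and limma-voom. At an unadjusted edgeR p under 0.05 there were 3 higher and 1 lower, where 3.3% and 2.43% of all tested genes were. Positive log2 fold changes numbered 18 and negative 9, where 54.2% of all tested genes were positive. The median was 0.33 against 0.13 over all tested genes. Gpx1, the glutathione peroxidase of the cytosol, had 172, 4532, 2572, 1381 and 1 reads in aneurysms 4 to 8 and 96, 192, 0, 3 and 87 in controls 4 to 8 (log2 fold change 3.62, standard error 1.24, edgeR adjusted p = 0.502). Its highest 3 samples were again aneurysms 5, 6 and 7.

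Taldo1, a transaldolase of the pentose phosphate pathway, stood at 4.23 on the log2 scale (standard error 1.63, edgeR adjusted p = 0.594) and was above every control in 2 of 5 lesions. Slc7a11, which imports cystine for glutathione and is a classical NRF2 target, had 1850, 92, 49, 129 and 37 reads in the lesions and 1658, 1099, 503, 1690 and 699 in the controls. In CPM 4 of 5 lesions were below every control (log2 fold change -2.14, standard error 0.84, edgeR adjusted p = 0.615), and 45.6% of its reads were in exons. The named NRF2 targets thus had values in both directions. Hmox1, Fth1, Gpx1, Taldo1 and the row named Ftl1 were positive, Slc7a11 was negative, and Gclm and Nqo1 overlapped between the groups. Of all these, Hmox1 alone passed the threshold. The row named Ftl1 is the single-exon locus that RefSeq calls LOC100360087.

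Because Nfe2l2 binds antioxidant response elements, the promoters of the 10 genes were searched for the core TGACNNNGC on both strands. RefSeq promoter windows of the GRCr8 build, 250 bases before to 50 bases after the gene start, were at hand for 6 of the 10, namely Blvra, Blvrb, Slc40a1, Tfrc, Nqo1 and Gclm. The core was found in 2, Gclm and Blvra, and in 12.1% of all 33469 windows. No window was at hand for Hmox1, Fth1, Ftl1 or Slc11a1, and bases outside the windows were not searched, so an element there would not be seen. Both matches are on the reverse strand, and the stretches are shown with the match in capitals because they are the only ones found in these 6 windows.
Gclm (chr2:213031943-213031991, plus strand, match beginning 172 bases before the gene start): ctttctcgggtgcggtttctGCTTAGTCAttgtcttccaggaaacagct
Blvra (chr3:134802745-134802793, plus strand, match beginning 145 bases before the gene start): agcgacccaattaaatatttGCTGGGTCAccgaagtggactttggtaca
A match describes letters only. The reads of these genes differed, since Blvra had reads in aneurysms 5, 6 and 7 and in controls 5 and 6, whereas Gclm was about as high in control 7 as in aneurysm 6 (42.9 and 49.9 CPM).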

How the data were processed

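In CLC genomics workbench, version 11, the authors mapped the reads against Rnor6, and they deposited counts per gene that they had not normalized: total gene reads (exon plus intron), unique gene reads, exon reads and reads across exon junctions. RNA had been extracted with a kit for fibrous tissue and sequenced after poly(A) selection with a stranded kit on a NextSeq500. How strand and duplicate reads were treated, and which annotation release was taken, is not given in the sources used here. Columns with the authors' own comparison hold fold changes and p-values and were not used, and 0 columns could not be matched to a sample. Of its 22081 genes 0 lack a name; a few listed genes, such as Pcbp1, Pgd and Pecam1, were not analysed here.

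Samples were grouped by their labels. Total gene reads were compared in R (4.3.3) with edgeR (4.0.16): filterByExpr with a count minimum of 10 left 7615 genes, libraries were scaled by TMM, and the quasi-likelihood test was adjusted over all of them by Benjamini-Hochberg at a threshold of 0.05. DESeq2 (1.42.0) and limma-voom (limma 3.58.1) were alternatives, as were 2 other scalings, no filter, exon reads, unique reads, the sample number as a block and leaving out each sample; 4 more were added after the data were seen. Log2 CPM used a prior count of 2. No pair of samples within a group was near sampling noise, the smallest chi-square being 55.8 for each degree of freedom. The fit was tested on simulated data. Tables were handled in Python (3.11.15) with pandas (2.3.3). Intervals and floors (3 reads) cover counting error only.

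The 10 genes, the other gene lists and the markers were chosen with earlier results of these data known. Named beside the 10 genes were those past the threshold and the 4 with the lowest p of each list, the 5 genes most correlated with Hmox1, and the 2 most abundant markers of each cell type, of which the text gives those it describes. A few genes that this rule names were left out.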

Additional observations from a re-analysis of the deposited data

Results flagged for a closer look

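In 4 of 18 groups of 5 samples (9 genes in 2 groups), 1 sample lay far above the others by Dixon's ratio (critical value 0.71). The chance rate of this ratio, about 5% of groups, assumes normally distributed values. It was taken here on CPM without logs, for genes that varied widely between samples, so that this rate cannot be applied. Whether 4 flags are more than chance gives was therefore not decided. Blvra stood at 56.1 CPM in aneurysm 7, where the next lesion had 9.02 CPM. Slc11a1 stood at 24 CPM in control 6, where the next control had 3 CPM, and these reads were all intronic. Nqo1 stood at 11.5 CPM in aneurysm 5, where the next lesion had 0.807 CPM. Gclm stood at 42.9 CPM in control 7, where the next control had 6.26 CPM. The flags fell on 4 different samples, and the cause was not tested.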

How the results depend on the processing

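The depth and the spread between samples limit these results: most of the genes had 0 exon reads in several samples. Hmox1 was the 1 gene of the set called, and 2 (Hmox1 and Ftl1) were called with DESeq2, with no low-count filter and without both samples numbered 8. The count was 0 with upper-quartile scaling, library size alone, limma-voom, exon reads without a filter, and library sizes over all genes, and it ranged from 0 to 2 when single samples were left out. The cause was not tested. For the other heme and iron genes the count was 0, and 1 (Pcbp2) with limma-voom; for the other antioxidant genes it was 0, and 1 (Gpx1) with no filter; leaving out single samples gave 0 to 0 for both. Over all genes 12 were called, against 132 with DESeq2 and 130 with no filter.

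The log2 fold change of Tfrc, -0.12, turned positive with DESeq2 (0.0947), library size alone (0.16), limma-voom (0.79), the replicate block (0.55), without both samples numbered 8 (0.15) and with exon reads without a filter (2.03), and ranged from -0.85 to 0.90 when single samples were left out (positive without aneurysm 4, aneurysm 8 or control 7). That of Gclm, 0.28, turned negative with exon reads (-0.20), limma-voom (-0.92) and exon reads without a filter (-0.15), and ranged from -1.28 to 2.04 when single samples were left out (negative without aneurysm 6, control 5 or control 8). The other 6 tested genes kept their direction in each setting that gave them a value; Blvra, Blvrb and Slc11a1 had none with exon reads, where they did not pass the filter. Exon reads without a filter put Slc11a1 at 8.86 (edgeR adjusted p = 0.175).

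Lesion and control tissue came from the same animal per the study's methods, but no source states that a shared number marks it. Samples of the same number deviated from their group means with correlations of 0.0240, -0.0236, 0.05, 7.89e-05 and 0.136 (numbers 4 to 8); only those numbered 6 and 8 correlated best with their own number. With the number as a replicate block, 17 genes were called in place of 12, and 1, 0 and 0 of the set and the 2 further lists; the adjusted p of Hmox1 was 0.00336 (edgeR). The block changed no call of the 8 tested genes; it put the log2 fold change of Fth1 at 0.996, of Ftl1 at 2.43, of Blvra at 2.43 and of Slc11a1 at 3.01.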
